A study of Mus musculus with 12 samples.

Results

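The transcripts carried by exosomes of PDGF-BB-treated cardiomyocytes were compared with those of untreated ones. The 8 samples titled PDGF-BB (4) and Control (4) were taken out of the 12 of the series, and probes called present (detection p-value under 0.01) by at least 3 of these 8 arrays were kept, 595 of 25696, for 525 named genes. All samples came from HL-1 cells, an immortalised mouse atrial cardiomyocyte line that still contracts in culture, grown in flasks with serum that had been cleared of vesicles by ultracentrifugation. The PDGF-BB group received 100 ng/mL of the growth factor dissolved in medium without serum, and the control flasks received no growth factor. The study does not say whether the control flasks were also changed to medium without serum. The conditioned medium of both groups was collected after 23 h. By the study's methods each sample came from its own culture flask. Both groups come from 1 cell line, so the p-values measure the spread between flasks of that line.

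PDGF-BB is a homodimer of platelet-derived growth factor B chains that binds both PDGF receptors, Pdgfra and Pdgfrb, which are tyrosine kinases of the cell surface. Phosphorylated tyrosines of the activated receptors recruit SH2 domain proteins, among them the phosphatase SHP2 and the regulatory subunit of PI3-kinase, and the signal runs on through Ras and the MAP kinases to transcription factors of growth. Exosomes are small vesicles released when multivesicular bodies fuse with the plasma membrane, and their RNA can be taken up by other cells.

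Values are log2 intensities after background correction and quantile normalization, and a difference is PDGF-BB minus control with its standard error (SE). Each sample was hybridised to 1 array. The arrays lie on 2 chips, chip 1 with PDGF-BB 1 and 4 and control 2 and 3, chip 2 with PDGF-BB 2 and 3 and control 1 and 4, so that both groups were measured on both chips and the chip entered the fit as a term. Arrays detected 294 to 1070 probes with PDGF-BB and 463 to 1152 in control, where about 257 per array are called by chance at this threshold. The mean difference of −213.8 probes was smaller than the spread (two-sided exact permutation p = 0.4, smallest possible p = 0.0286). The difference was −628.5 for chip 1 alone and 201 for chip 2 alone, −394.8 without PDGF-BB 3, −136.2 without PDGF-BB 4 and −76.6 without control 3. Over the tested probes, arrays correlated at 0.12 to 0.71 within PDGF-BB and at 0.44 to 0.90 within control, and PDGF-BB 1 had the lowest median correlation with the others (0.21), followed by control 1 (0.54). The study left out a PDGF-BB sample for poor hybridization and does not say which. PDGF-BB 1 was therefore kept, and the results were repeated without it.

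The labelled cell type was checked against its markers. Of 13 cardiomyocyte genes, 6 were detected on at least 1 of the 8 arrays: Atp2a2 (SERCA2), which returns calcium to the sarcoplasmic reticulum, Myl4 and Myl7, the atrial myosin light chains, Ttn (titin), the connexin gene Gja1 and Myh6, the α-myosin heavy chain. The natriuretic peptide gene Nppa, the cardiac actin gene Actc1, Tnni3, Ryr2, Sln and Nkx2-5 were detected on 0 arrays. Per array, 7.69, 15.4, 46.2 and 15.4% of the cardiomyocyte markers were detected with PDGF-BB and 15.4, 30.8, 38.5 and 30.8% in control (samples 1 to 4). Their summed intensity over all probes of the list was 700.6 to 1286 with PDGF-BB and 820.2 to 1174 in control, so the groups overlapped. Endothelial and erythroid markers were detected on 0 arrays, fibroblast markers on PDGF-BB 1 (Col3a1) and control 3 (Dcn) alone, and leucocyte markers on control 4 alone (Cd14 and Ms4a1). The amount of exosomes cannot be read from these arrays, and fewer vesicles and less of a transcript per vesicle cannot be told apart.

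**Figure D1:**
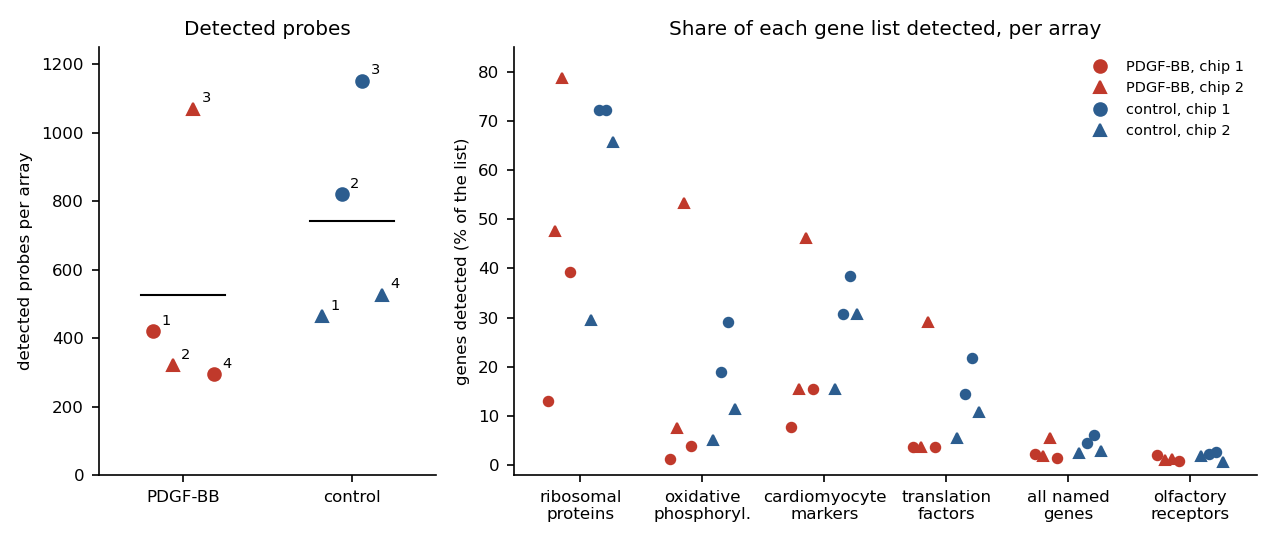
Left, detected probes per array (detection p-value under 0.01, of 25696) in the PDGF-BB and control samples, numbered by replicate, with the group mean as a line. Right, the percentage of each gene list detected on each array; circles are chip 1 and triangles chip 2. PDGF-BB 3 stands at 1070 probes and 53.2% of the oxidative phosphorylation genes, while the other PDGF-BB arrays stand at 294 to 421 probes and 1.27 to 7.59%.

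In the test of single probes, limma called 0 of 595 at an adjusted p under 0.05 (0%), and the lowest adjusted p was 0.818. At an unadjusted p under 0.05, 21 probes were lower with PDGF-BB (3.53%) and 2 were higher (0.336%). The median SE of a difference was 0.44. The median difference was −0.15, and 62.2% of the probes had a negative one. That split depends on the scaling. With median scaling of the arrays in place of quantile normalization, 47.2% were negative and the median was 0.04, so differences near this size have no settled sign. The number at an unadjusted p under 0.05 varied with the array left out. It was 13 higher and 59 lower without PDGF-BB 3, 6 and 73 without control 1, and 5 and 19 without PDGF-BB 4. It was 2 and 10 without PDGF-BB 1 and 3 and 10 without PDGF-BB 2. Without control 2 it was 0 and 7, without control 3 0 and 13, and without control 4 2 and 13. The genes below are therefore given as values. Each difference printed with its SE had a limma adjusted p = 0.818 unless another value stands beside it.

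Among the genes of receptor signalling, Pik3r1, the p85α regulatory subunit of PI3-kinase that docks on activated PDGF receptors, had the smallest p. Its first probe had log2 intensities of 4.76, 4.89, 5.67 and 5.13 on PDGF-BB arrays 1 to 4, against 5.58, 7.55, 7.76 and 7.04 on control arrays 1 to 4. Control 1 fell within the PDGF-BB range and control 2 to 4 lay above it. The difference was −1.87 ± 0.49, with −2.71 on chip 1 and −1.03 on chip 2, and the probe was detected on 1 PDGF-BB array and 4 control arrays. A second Pik3r1 probe had 4.63, 4.65, 5.37 and 4.82 with PDGF-BB, against 4.76, 6.94, 7.06 and 6.91 in control. Control 1 again lay among the PDGF-BB arrays, and the difference was −1.55 ± 0.54. A further Pik3r1 probe was detected on 0 arrays, with a mean of 4.5 in both groups. Pdpk1, the kinase PDK1 that phosphorylates AKT, had −0.33 ± 0.31 (limma adjusted p = 0.846), and its sign turned on chip 2 (0.13). Of 29 genes listed for PI3K, AKT, PLC and STAT signalling, these 2 genes passed the filter. Their 3 tested probes had a median of −1.55, against −0.15 over all tested probes, and 2 of the 3 had an unadjusted p under 0.05, against 21 lower and 2 higher of 595. Both are probes of Pik3r1, so this count and median restate that gene.

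Nras encodes a Ras GTPase, which passes the signal of the receptor to the MAP kinases. Its intensities were 5.06, 6.80, 6.92 and 7.83 with PDGF-BB, against 9.18, 8.55, 8.44 and 8.0 in control. All 4 PDGF-BB arrays lay below all 4 control arrays, with PDGF-BB 1 farthest below and PDGF-BB 4 close to control 4. The difference was −1.89 ± 0.60, at −2.05 (chip 1) and −1.73 (chip 2), and it was −1.33 without PDGF-BB 1 and −0.94 without both PDGF-BB 1 and control 1. Spred1, an inhibitor of Ras to MAP kinase signalling, had 4.48, 4.94, 5.49 and 4.66 with PDGF-BB, against 4.64, 5.86, 6.93 and 6.01 in control. Control 1 again lay within the PDGF-BB range, and the difference was −0.97 ± 0.51, with −1.83 on chip 1 and −0.11 on chip 2.

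The kinases and the phosphatase of this route had differences within 1 SE of 0. Mapk14 (p38α) had −0.25 ± 0.27 (limma adjusted p = 0.855), Mapkapk2, a kinase activated by p38, −0.35 ± 0.61 (limma adjusted p = 0.921), and Mapk9 (JNK2) 0.12 ± 0.38 (limma adjusted p = 0.957). A probe of Ptpn11, which encodes SHP2, was detected on all 8 arrays, with 9.13, 9.46, 7.72 and 9.52 with PDGF-BB, against 8.43, 9.27, 9.02 and 9.06 in control. The groups overlapped, and the difference was 0.02 ± 0.42 (limma adjusted p = 0.991). The other Ptpn11 probes were detected on 0 PDGF-BB arrays and at most 1 control array. The differences given for these 4 genes changed sign under at least 1 other setting, Ptpn11 to −0.96 with median scaling. Of 43 genes listed for PDGF receptor, Ras and MAPK signalling, 6 passed the filter, 2 with a positive and 4 with a negative difference, and Nras alone had an unadjusted p under 0.05, against 3.53% lower over all tested probes. The median was −0.30, against −0.15 over all tested probes. The receptor genes themselves, Pdgfra and Pdgfrb, were detected on 0 of the 8 arrays.

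The bases upstream of the start sites are shown for Pik3r1 and Nras, the signalling genes with the smallest p, and for Appbp2, the gene with the second smallest p of all. Each run covers the 250 bases before the RefSeq start site in build GRCm38.p6, read 5′ to 3′ on the gene's strand: chr13:101768218-101768467 (minus strand), chr3:103058035-103058284 (plus strand) and chr11:85235121-85235370 (minus strand). Pik3r1 has 2 start sites in the RefSeq table, and the first listed is shown. Capitals mark matches on either strand to GGGCGG (SP1 box), TGANTCA (AP-1), TGACGTCA (CRE), CCGGAAG (ETS), CACGTG (E-box) and TTTNGCGC (E2F).
Pik3r1: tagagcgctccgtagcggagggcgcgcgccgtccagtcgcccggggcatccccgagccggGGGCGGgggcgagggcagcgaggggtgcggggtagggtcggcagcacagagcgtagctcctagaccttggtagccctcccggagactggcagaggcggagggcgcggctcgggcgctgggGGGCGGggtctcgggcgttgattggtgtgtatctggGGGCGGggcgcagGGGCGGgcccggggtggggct
Nras: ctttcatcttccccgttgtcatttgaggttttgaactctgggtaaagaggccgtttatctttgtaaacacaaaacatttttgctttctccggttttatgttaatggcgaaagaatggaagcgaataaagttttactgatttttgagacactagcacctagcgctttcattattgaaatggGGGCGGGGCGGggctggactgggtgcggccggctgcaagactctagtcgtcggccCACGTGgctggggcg
Appbp2: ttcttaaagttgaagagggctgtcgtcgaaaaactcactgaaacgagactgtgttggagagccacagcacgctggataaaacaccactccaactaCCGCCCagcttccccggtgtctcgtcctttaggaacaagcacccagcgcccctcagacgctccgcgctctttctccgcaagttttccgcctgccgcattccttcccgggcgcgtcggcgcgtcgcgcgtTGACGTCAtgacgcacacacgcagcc
Pik3r1 holds 4 SP1 boxes, Nras 2 that share a base and 1 E-box, and Appbp2 1 SP1 box and 1 CRE. Of 32851 windows of this length in the table, 32.7% hold an SP1 box, 6.02% an E-box, 1.55% a CRE, 6.75% an AP-1 site, 6.91% an ETS site and 1.13% an E2F site. A match describes the letters and not a bound site.

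Outside these pathways, the smallest p of all belonged to E2f1, a transcription factor that drives entry into DNA synthesis. It had 4.81, 5.51, 5.75 and 4.93 with PDGF-BB, against 6.70, 6.91, 5.79 and 6.93 in control. All PDGF-BB arrays lay below all control arrays, though PDGF-BB 3 and control 3 nearly met, and the difference was −1.33 ± 0.32 (−1.48 on chip 1 and −1.19 on chip 2). A probe of E2f2, of the same family, had −0.71 ± 0.34, with −1.18 on chip 1 and −0.24 on chip 2. It was detected on 0 PDGF-BB and 3 control arrays, and control 1 (4.56) lay within the PDGF-BB range of 4.51 to 4.97. Counted against the lowest detected signal of each PDGF-BB array, its control mean was at least 1.05-fold higher. A second E2f2 probe had −0.64 ± 0.49, with −1.75 on chip 1 and 0.47 on chip 2. The tested probes of E2f6, also of this family, were each detected on 3 PDGF-BB arrays. They had −0.60 ± 0.62 (limma adjusted p = 0.855) and 0.00 ± 0.66 (limma adjusted p = 0.999), at 0.46 and 0.91 on chip 2. Of 45 cell cycle genes 4 were tested, with 6 probes of median −0.62, against −0.15 over all tested probes. Cdkn1a, the gene of the 4 outside the E2F family, had 0.07 ± 0.35 (limma adjusted p = 0.979). All other probes are of E2F genes, so the list median largely restates that family. The list median was 0.40 on chip 2 and −0.28 without PDGF-BB 1. E2f1 was the 1 of these 6 probes with an unadjusted p under 0.05, against 3.53% lower over all tested probes.

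Appbp2, an adaptor that binds the amyloid precursor protein, had 4.65, 5.09, 5.05 and 4.88 with PDGF-BB, against 6.33, 5.94, 5.85 and 5.72 in control. The groups did not overlap, and the nearest arrays were PDGF-BB 2 and control 4. The difference was −1.04 ± 0.26, and the gene was detected on 1 PDGF-BB array and 4 control arrays.

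Odc1, whose enzyme starts polyamine synthesis and which growth factors are known to induce, was detected on all 8 arrays. It had 7.87, 6.22, 7.81 and 8.0 with PDGF-BB, against 9.13, 8.19, 8.16 and 8.43 in control. No PDGF-BB array reached the lowest control array, and PDGF-BB 2 stood apart from its group. The difference was −1.0 ± 0.48, with −0.24 on chip 1 and −1.76 on chip 2. Klf10, an early response gene of the TGF-β and growth factor pathways, spread over both groups, with 10.00, 8.19, 5.90 and 7.12 with PDGF-BB, against 8.64, 4.75, 4.95 and 7.08 in control. PDGF-BB 1 and control 1 held the highest values of their groups, and the difference of 1.45 ± 1.12 turned from 3.71 on chip 1 to −0.81 on chip 2. Mcl1, which protects cells from apoptosis, had −0.62 ± 0.46. Of 33 immediate early and serum response genes these 3 passed the filter, with 0 at an unadjusted p under 0.05, while Fos, Jun and Myc were detected on 0 arrays and Egr1 on PDGF-BB 4 alone.

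Rcan3, an inhibitor of the phosphatase calcineurin, had 4.86, 5.37, 6.05 and 6.24 with PDGF-BB, against 7.60, 7.30, 6.72 and 6.38 in control. The groups did not overlap, and the difference was −1.37 ± 0.44. A second Rcan3 probe had −0.46 ± 0.84 (limma adjusted p = 0.921). On chip 1 it had −1.30, against −1.46 for the first probe. It was 0.37 on chip 2 and 0.46 without PDGF-BB 1, where the first probe had −1.28 and −1.13. The 2 probes thus disagreed in direction in those settings, though not with all arrays. A further Rcan3 probe was detected on 0 arrays, with means of 4.76 with PDGF-BB and 4.82 in control. Myocd, the coactivator myocardin of heart and smooth muscle genes, had 4.65, 5.12, 6.22 and 5.02 with PDGF-BB, against 5.06, 7.64, 7.86 and 6.98 in control. Control 1 lay among the PDGF-BB arrays, and the difference of −1.63 ± 0.66 was −2.91 on chip 1 and −0.35 on chip 2. These values are of 1 Myocd probe. The other Myocd probes were detected on 0 arrays, with means of 4.45 and 4.75 with PDGF-BB, against 4.48 and 4.77 in control. Of 31 cardiac transcription factors and hypertrophy regulators, 5 genes were tested with 7 probes, all with a negative difference of −0.09 to −1.63 and a median of −0.46, and 2 probes had an unadjusted p under 0.05. Over all tested probes 62.2% were negative, 3.53% were lower at that p and the median was −0.15. The list median was −0.93 with median scaling and −0.21 without PDGF-BB 1, when 5 of 7 were negative.

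Prkacb, a catalytic subunit of protein kinase A, had 4.71, 6.22, 6.66 and 8.41 with PDGF-BB, against 9.46, 8.70, 7.67 and 8.32 in control. PDGF-BB 4 lay inside the control range, and the difference of −2.04 ± 0.78 was −1.62 on chip 1 and −2.45 on chip 2, or −1.41 without PDGF-BB 1. Cggbp1, which binds CGG repeats, had 4.82, 5.60, 6.15 and 7.39 with PDGF-BB, against 7.94, 8.27, 7.02 and 7.53 in control. PDGF-BB 4 again reached the control range, and the difference was −1.70 ± 0.59. Chtop, a factor of mRNA export, had 5.11, 7.69, 6.14 and 6.06 with PDGF-BB, against 8.39, 7.33, 7.32 and 7.81 in control. Here PDGF-BB 2 reached the control range, and the difference was −1.47 ± 0.43, while a second Chtop probe had −0.74 ± 0.75 (limma adjusted p = 0.855) that was −0.04 without PDGF-BB 1.

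Reep1, which shapes the endoplasmic reticulum, was the 1 probe detected on all 4 control arrays and on 0 PDGF-BB arrays. It had 4.92, 5.04, 4.93 and 4.64 with PDGF-BB, against 5.84, 5.15, 5.70 and 5.58 in control. The groups did not overlap, with control 2 nearest to PDGF-BB 2, and the difference was −0.68 ± 0.26. Counted against the lowest detected signal of each PDGF-BB array, the control mean was at least 1.17-fold higher. Tcf4, a basic helix-loop-helix transcription factor, was detected on 0 PDGF-BB and 3 control arrays, and the same reckoning put control at least 1.67-fold above PDGF-BB. It had 4.67, 4.69, 4.98 and 5.24 with PDGF-BB, against 4.71, 6.86, 6.83 and 5.91 in control. Control 1 lay among the PDGF-BB arrays, and the same holds for Fam126a, a scaffold of the lipid kinase PI4KA (−1.33 ± 0.44), and for Acvr2b, an activin receptor (−1.05 ± 0.41). In all, control 1 was at or below the highest PDGF-BB array in 4 of the 12 lower genes shown. All 12 were negative on both chips, as were 158 of the 595 tested probes. The 12 were picked by p from these same arrays, so their agreement between chips is no separate test.

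**Figure D2:**
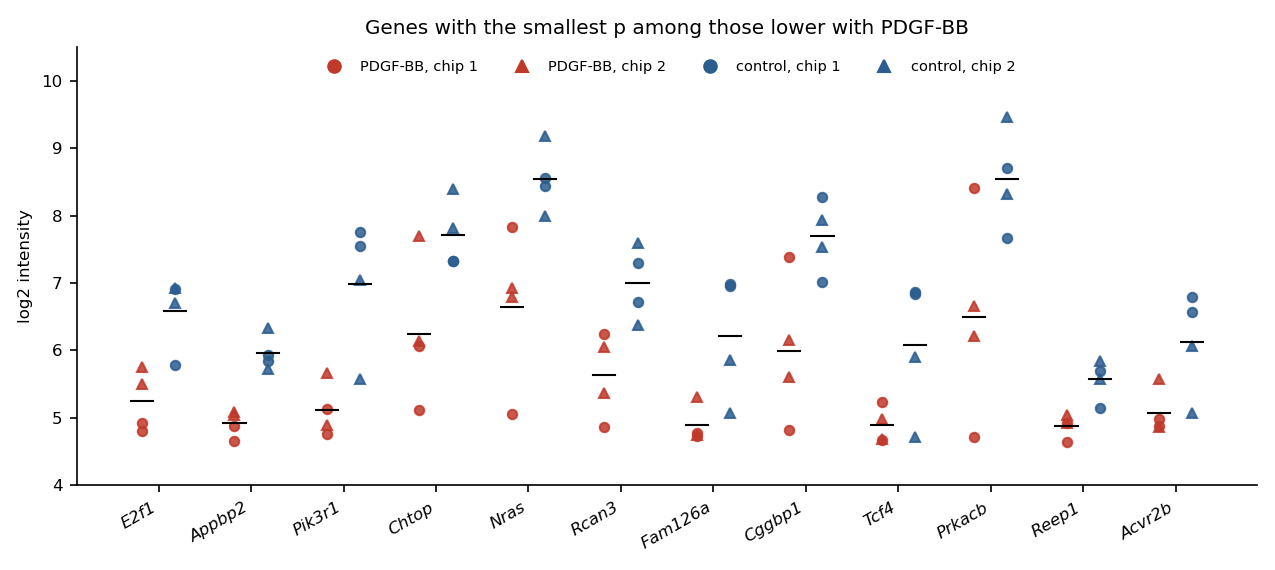
Log2 intensity of the 12 genes with the smallest p among those lower with PDGF-BB; each point is an array, lines are group means, circles are chip 1 and triangles chip 2. The groups do not overlap for E2f1, Appbp2, Nras, Rcan3 and Reep1, while control 1 sits among the PDGF-BB arrays for Pik3r1, Fam126a, Tcf4 and Acvr2b.

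Over the 595 probes, 8 had all PDGF-BB arrays below all control arrays (1.34%): E2f1, Appbp2, Nras, Rcan3, Reep1, Odc1 and 2 probes with no gene name. The reverse held for 2 (0.336%), Ube2o and Ampd1, the AMP deaminase of skeletal muscle (0.25 ± 0.25, limma adjusted p = 0.846). Ube2o, a ubiquitin-conjugating enzyme, had 6.14, 5.34, 5.20 and 5.47 with PDGF-BB, against 4.98, 5.12, 5.04 and 4.93 in control. The groups did not overlap, though PDGF-BB 3 and control 2 nearly met, and the difference was 0.52 ± 0.28.

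Most of the 12 higher genes named here had their highest values on the same 2 arrays. Il15, a cytokine of lymphocytes that muscle also makes, had 7.64, 5.13, 5.13 and 7.10 with PDGF-BB, against 4.80, 5.27, 5.47 and 4.97 in control. PDGF-BB 1 and 4, both on chip 1, were high and PDGF-BB 2 and 3 lay within the control range, so that the difference of 1.13 ± 0.41 was 2.0 on chip 1 and 0.25 on chip 2. Alox12b, a lipoxygenase of the skin barrier, had 9.63, 6.53, 4.84 and 7.94 with PDGF-BB, against 5.47, 5.59, 5.13 and 5.19 in control. PDGF-BB 1 and 4 were again highest and PDGF-BB 3 lay below every control array, and the difference was 1.89 ± 0.75 (3.43 on chip 1 and 0.36 on chip 2). These were the 2 higher probes with an unadjusted p under 0.05.

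The next genes had the same form. Zap70, a kinase of the T cell receptor, had 6.28, 5.27, 4.78 and 7.49 with PDGF-BB, against 4.92, 5.21, 4.94 and 4.87 in control, a difference of 0.97 ± 0.45. It was detected on 2 PDGF-BB arrays and 1 control array. Of 10 leucocyte markers 0 were detected on any PDGF-BB array, and their summed intensity was 369.4 to 391.8 with PDGF-BB and 380.5 to 401.8 in control. Ldb3, a protein of the muscle Z-disc, had 6.64, 4.85, 4.82 and 6.16 with PDGF-BB, against 4.83, 4.98, 5.10 and 4.89 in control. Its difference of 0.67 ± 0.36 was 1.36 on chip 1 and −0.02 on chip 2. Slc43a2, an amino acid transporter (0.95 ± 0.49), Tdrd3, a Tudor domain protein (0.77 ± 0.34), Hspa9, the mitochondrial chaperone mortalin (0.68 ± 0.34), the kinase gene Map3k12 (0.66 ± 0.33) and the olfactory receptor gene Olfr60 (0.71 ± 0.38) were also highest on PDGF-BB 1 and 4. This form, with the 2 highest values of all on the chip 1 PDGF-BB arrays, was shown by 10 of the 12 higher genes named and by 31 of the 595 probes (5.21%). With median scaling the 12 differences kept their sign, at 0.15 to 0.47.

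Notch2 and Mtch1 were the exceptions. Notch2, a cell surface receptor of cell fate, had 5.67, 6.40, 4.87 and 6.36 with PDGF-BB, against 5.01, 5.13, 5.17 and 4.93 in control. PDGF-BB 3 was below every control array and the other 3 above all of them, with 0.77 ± 0.39 over the groups, 0.87 on chip 1 and 0.67 on chip 2. Mtch1, a carrier homologue of the mitochondrial outer membrane, had 5.19, 7.63, 6.57 and 6.66 with PDGF-BB, against 5.61, 5.40, 5.95 and 5.52 in control. PDGF-BB 1 lay below all control arrays and PDGF-BB 2 to 4 above all of them, and the difference was 0.89 ± 0.48.

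**Figure D3:**
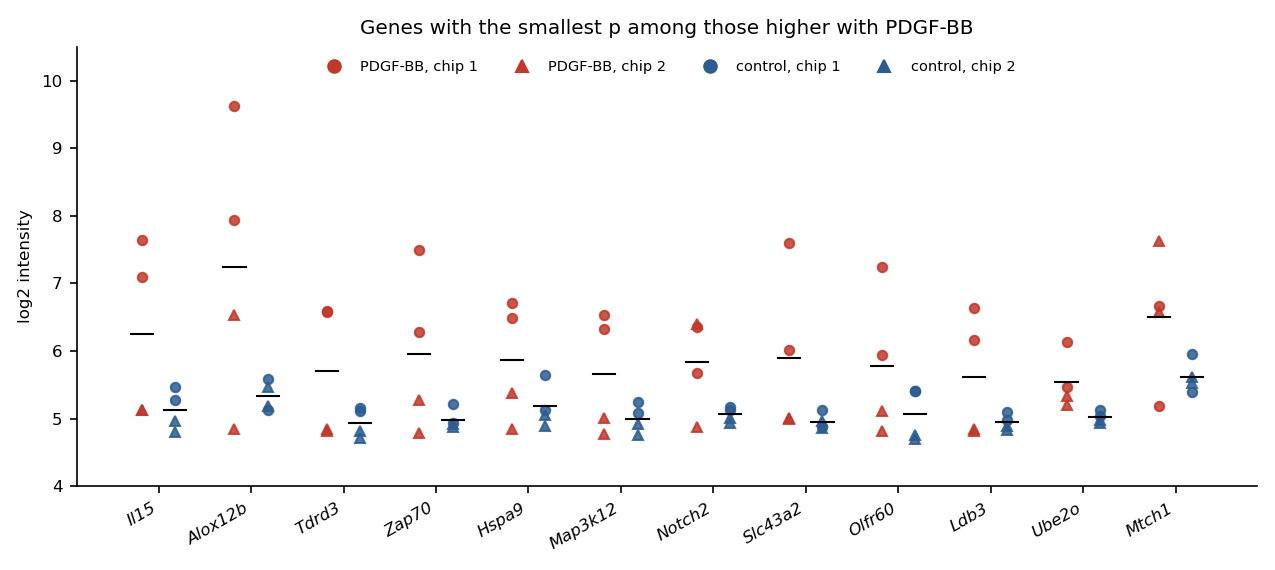
Log2 intensity of the 12 genes with the smallest p among those higher with PDGF-BB; each point is an array, lines are group means, circles are chip 1 and triangles chip 2. The chip 1 PDGF-BB arrays hold the 2 highest values for 10 of the 12 genes, and Ube2o is the 1 gene with no overlap between the groups.

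Since each chip held 2 arrays of either group, the difference between the chips was tested. By limma, 0 of 595 probes had an interaction of chip and treatment at an adjusted p under 0.05 (lowest adjusted p = 0.507). At an unadjusted p under 0.05 there were 47 (7.90%), 29 with a higher difference on chip 2 and 18 with a lower one. The median difference was −0.41 on chip 1 and 0.06 on chip 2. As a description, the differences on both chips correlated at −0.21 over the 595 probes, which share the arrays and their normalization, and 245 probes had the same sign on both, 158 lower and 87 higher. Of the genes named above, Il15, Tdrd3, Fam126a, Ldb3, Map3k12, Alox12b, Klf10, Myocd, Zap70 and the second E2f2 probe were among those with an unadjusted interaction p under 0.05.

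**Figure D4:**
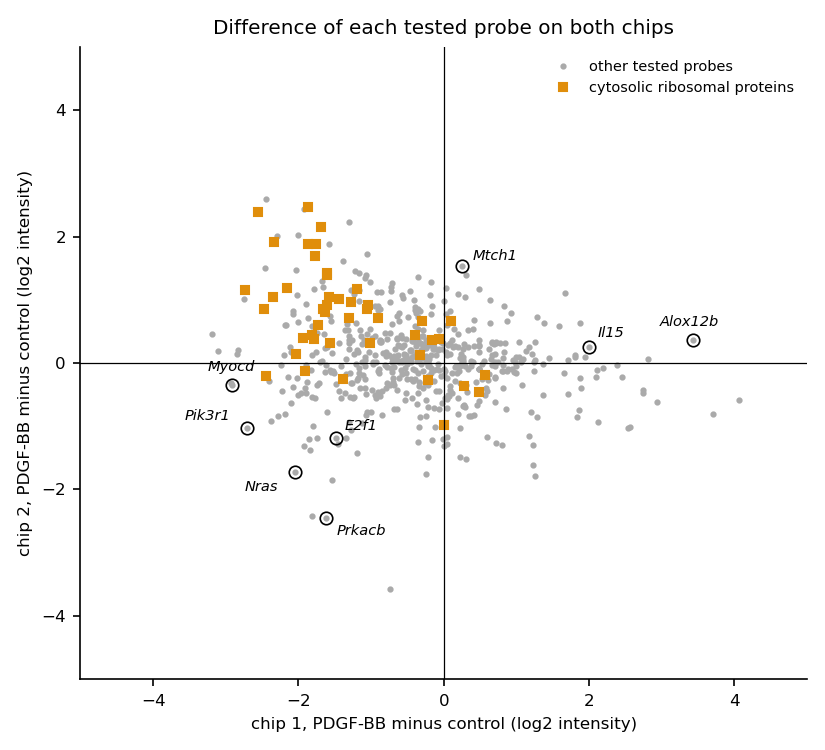
PDGF-BB minus control in log2 intensity on chip 1 (x axis) and chip 2 (y axis) for the 595 tested probes, with cytosolic ribosomal protein probes as squares and some named genes circled. Nras, Prkacb and E2f1 lie in the lower left, Alox12b and Il15 near the x axis at 3.43 and 2.0, and 36 of 45 ribosomal probes in the upper left.

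The ribosomal protein genes, which encode the protein part of the ribosome, differed in direction between the chips. Of 61 genes on the array 43 were tested, with 45 probes. On chip 1 40 of the 45 were lower with PDGF-BB (median −1.60), on chip 2 37 of the 45 were higher (median 0.72), and 36 did both. Over all 595 tested probes, 403 were lower on chip 1, 333 were higher on chip 2 and 245 did both. Of the 45 probes, 6 had an unadjusted interaction p under 0.05, against 47 of 595 (7.90%). The median per-array deviation of these probes from their own mean was −1.30, 0.09, 1.13 and −0.14 on PDGF-BB arrays 1 to 4, against −0.84, 0.30, 0.63 and 0.50 on control arrays 1 to 4. PDGF-BB 1 and control 1 were low, on different chips, and PDGF-BB 3 was high. Over both chips, 34 probes were lower and 11 higher with a median of −0.21, against −0.15 over all tested probes, 0 had an unadjusted p under 0.05, and the median was −0.50 with median scaling. Without PDGF-BB 1 it was 0.17, with 30 probes higher and 15 lower, without PDGF-BB 3 it was −0.51 and without control 1 it was −0.86. Rpl41 shows the weight of 1 array, with 4.98, 9.76, 10.46 and 10.46 with PDGF-BB, against 10.31, 10.00, 10.31 and 10.31 in control. Its difference was −1.32 ± 1.11 with all arrays (limma adjusted p = 0.844) and 0.00 without PDGF-BB 1.

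Oxidative phosphorylation genes, the subunits of the respiratory chain and ATP synthase, were highest on PDGF-BB 3. Of 79 genes 18 were tested, with 19 probes, 12 higher and 7 lower and a median of 0.01, which was −0.64 for chip 1 and 0.68 for chip 2, −0.36 without PDGF-BB 3, 0.34 with median scaling and −0.14 with the study's spline values. The per-array median deviation was −0.46, −0.31, 1.23 and −0.35 with PDGF-BB, against −0.41, 0.13, 0.12 and −0.10 in control. Atp5g3, a subunit c gene of ATP synthase, had 4.76, 6.33, 8.70 and 7.71 with PDGF-BB, against 8.50, 8.06, 6.96 and 8.64 in control. PDGF-BB 3 was the highest and PDGF-BB 1 the lowest of all 8 arrays, and the difference was −1.16 ± 0.76. Translation factors had 7 of 9 probes lower and a median of −0.27, against 62.2% lower and −0.15 over all tested probes. The list median was −0.87 on chip 1 and 0.33 on chip 2, where 7 of the 9 were higher. With median scaling it was 0.07. The actin and tubulin list had 6 of 7 probes lower, where 62.2% of all tested probes were lower, with a median of −0.37 that was −1.10 on chip 1 and 0.37 on chip 2, where 5 of the 7 were higher.

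Heart muscle transcripts were tested for few genes. Myl4 had 5.15, 7.14, 8.43 and 7.94 with PDGF-BB, against 8.61, 8.24, 7.72 and 7.83 in control, a difference of −0.94 ± 0.65 that was −0.29 without PDGF-BB 1. Ttn had 8.27, 5.04, 5.50 and 5.04 with PDGF-BB, against 4.98, 5.43, 5.80 and 4.87 in control. PDGF-BB 1 alone was high, and the difference of 0.69 ± 0.65 (limma adjusted p = 0.846) was −0.03 without it. Of 6 tested cardiomyocyte marker probes 5 were lower, with a median of −0.18. Over all tested probes 62.2% were lower and the median was −0.15. The median of the markers was −1.18 on chip 1, 0.62 on chip 2 and 0.01 without PDGF-BB 1. Olfactory and vomeronasal receptor genes, a background that cardiomyocytes should lack, had 14 tested probes, 8 higher and 6 lower, with a median of 0.06.

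**Figure D5:**
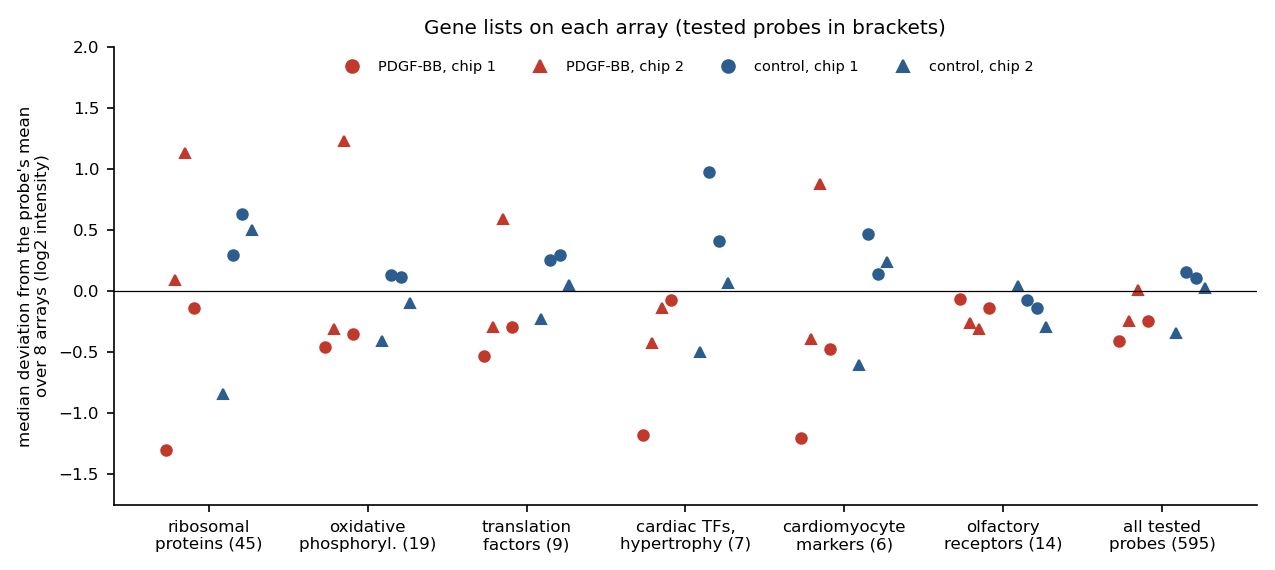
Median deviation of a list's tested probes from their mean over the 8 arrays, in log2 intensity, for each array; PDGF-BB is left of control, circles are chip 1 and triangles chip 2. For ribosomal proteins PDGF-BB 1 (−1.30) and control 1 (−0.84) are lowest and PDGF-BB 3 (1.13) highest, and for oxidative phosphorylation PDGF-BB 3 (1.23) stands above the rest.

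By presence, 37 probes were detected on all 4 PDGF-BB arrays and 92 on all 4 control arrays, of which 26 were on all 8. The other 11 probes of the PDGF-BB arrays were on 2 control arrays (5, for Abcf1, Gm5820, Klf10, Setd4 and Zeb1) or 3 (6, for Dnajc5, Ncstn, Plekhf2, Senp1, Tdpoz2 and Zcchc9), and 0 were on fewer. Leaving PDGF-BB 1 aside, 97 probes were on PDGF-BB 2, 3 and 4, and all of them were on at least 1 control array, 55 on all 4 and 42 on 1 to 3. Of the 92 probes on all 4 control arrays, 14 were on at most 1 PDGF-BB array, and of the 37 the reverse held for 0. Control arrays also detected more probes of all kinds, a mean of 740.5 per array against 526.8 with PDGF-BB. Whether the 14 go beyond that difference was not tested. Of the 14, Galc (0.05) and Narf (0.04) had differences near 0, and Vezf1 (−0.35), Eef1a2 (−0.49), Rnf14 (−0.60) and Cbx5 (−0.64) had smaller negative ones than the rest. The 8 others were Pik3r1, Appbp2, Reep1, Rps9, a protein of the small ribosomal subunit (−0.82 ± 0.50), Kansl2, of a histone acetyltransferase complex (−0.76 ± 0.37), the fatty acid desaturase Fads1 (−0.74 ± 0.53), Phactr4, which binds protein phosphatase 1 and actin (−0.70 ± 0.35), and the cholesterol ester hydrolase Nceh1 (−0.67 ± 0.31). For Rps9, Kansl2 and Fads1, PDGF-BB 3 was the highest PDGF-BB array, and for Rps9 and Fads1 it exceeded every control array. For Kansl2 it exceeded control 1 alone. A second Rps9 probe had −0.10 ± 0.52 (limma adjusted p = 0.979).

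The 26 probes detected on all 8 arrays include genes with a difference near 0. Irgm1, an interferon-induced GTPase, had 10.65, 11.51, 10.96 and 10.31 with PDGF-BB, against 11.51, 10.46, 11.09 and 10.46 in control, and the difference was −0.02 ± 0.36 (limma adjusted p = 0.988). A probe of Fth1, the ferritin heavy chain, had 6.25, 7.39, 8.39 and 7.69 with PDGF-BB, against 7.71, 7.29, 7.33 and 7.97 in control. The groups overlapped, and the difference was −0.15 ± 0.40 (limma adjusted p = 0.949). A second Fth1 probe, detected on 2 PDGF-BB and 4 control arrays, had −1.31 ± 0.84. Klhdc10, a substrate adaptor of a ubiquitin ligase, had −1.52 ± 0.84, Fau, which encodes a ribosomal protein fused to a ubiquitin-like one, −0.62 ± 0.68 (limma adjusted p = 0.875), Denn2b −0.42 ± 0.87 (limma adjusted p = 0.927) and Erich5 −0.26 ± 0.78 (limma adjusted p = 0.954). Eef1g, of translation elongation factor 1, had −0.55 ± 0.48 (limma adjusted p = 0.846), and Cyb5b, the mitochondrial form of cytochrome b5, −1.01 ± 0.65. Htatsf1, a factor of transcription elongation and splicing, had 8.88, 8.08, 6.16 and 6.97 with PDGF-BB, against 9.06, 6.03, 6.10 and 6.67 in control, with PDGF-BB 1 and control 1 highest in their groups and a difference of 0.56 ± 0.84 (limma adjusted p = 0.921). Of the same 26 probes, that of Lbh, a transcription cofactor of the developing heart and limb, had −0.29 ± 0.56 (limma adjusted p = 0.927). Leaving out PDGF-BB 1 moved most of these: Klhdc10 had −0.61, Cyb5b −0.28, Eef1g −0.15 and Lbh −0.66 without it, and the sign turned for Fau (0.16), Denn2b (0.35), Fth1 (0.18 for its first probe) and Htatsf1 (−0.08). Erich5 had −0.68. Of the ribosomal protein genes on all 8 arrays, Rps14 had 9.24, 9.18, 8.50 and 8.88 with PDGF-BB, against 9.52, 9.33, 8.24 and 8.88 in control, a difference of −0.04 ± 0.38 (limma adjusted p = 0.979), and Rps24 had −0.25 ± 0.40 (limma adjusted p = 0.921).

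Without PDGF-BB 1, limma called 0 of the 595 probes (lowest adjusted p = 0.953), with 10 lower (1.68%) and 2 higher (0.336%) at an unadjusted p under 0.05. The lower genes with the smallest p were Appbp2 (−1.05), E2f1 (−1.36), Nras (−1.33), Pik3r1 (−1.72) and Chtop (−1.26), each with a limma adjusted p = 0.953. All 5 are among the 12 lower genes above, which were ranked on the same arrays and PDGF-BB 1, so the overlap is no separate test. Among the higher genes Mtch1 came first (1.38), since the array left out was the low one, followed by Il15 (0.89) and Olfr60 (0.93), each with a limma adjusted p = 0.953. Dap3, of the small mitochondrial ribosomal subunit, had 4.81, 5.28, 5.19 and 6.57 with PDGF-BB, against 4.71, 5.76, 5.38 and 5.02 in control, and Noa1, a mitochondrial GTPase, had 5.12, 5.56, 4.98 and 6.61, against 4.85, 5.30, 5.05 and 5.09. In both, PDGF-BB 4 was the highest array, and their differences without PDGF-BB 1 were 0.66 and 0.81 (limma adjusted p = 0.953 for both). With all arrays Dap3 had 0.25 ± 0.41 (limma adjusted p = 0.921). Without both PDGF-BB 1 and control 1, the 2 arrays least correlated with the rest, 0 probes were called (lowest limma adjusted p = 0.343) and 2 were higher and 50 lower at an unadjusted p under 0.05.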

How the data were processed

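RNA of HL-1 exosomes was hybridised to Illumina MouseRef-8 BeadChips, 1 array per sample. The authors deposited bead-averaged signal intensities, not normalized, with a detection p-value per probe in steps of 1 in 798, for which the submitters' processing notes name GenomeStudio and the study's methods name BeadStudio. The authors also deposited a table of 25697 rows of cubic spline normalized intensities, which served as an alternative. Here the 8 PDGF-BB and control arrays were corrected and normalized together with neqc of limma 3.58.1 (R 4.3.3), which uses the detection p-values, an offset of 16, quantile normalization and log2 values. An array detected a probe at a detection p-value under 0.01, which calls about 257 of 25696 probes by chance, and probes detected on at least 3 arrays were tested. Probe names came from the platform annotation: 23977 probes had 1 gene symbol, 0 had several and 1719 had none. All columns used were matched to a sample (0 unmatched).

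The fit had group and chip as terms (lmFit, eBayes), with Benjamini-Hochberg adjustment over all tested probes. An interaction of chip and group was fitted separately. Detected probes per array were set against group by an exact, two-sided permutation over samples. The genes named are the 12 with the smallest p in each direction, the 5 in each direction without PDGF-BB 1, up to 8 probes detected on every array of one group and at most 1 of the other, tested members of the signalling and early response lists, up to 12 genes detected on all 8 arrays and the members with the smallest p of other lists. Ampd1, Rps14, Rps24, Fth1's and other second probes were chosen after their values were seen. The members and lists were chosen with earlier results of these data known. Alternatives were other normalizations, filters, array weights, 1 chip at a time, replicate number as a block and each array left out. The scripts were checked on simulated data. The number of arrays limits the precision, with a median SE of 0.44. Promoter sequences are those of RefSeq in build GRCm38.p6.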

Additional observations from a re-analysis of the deposited data

Results flagged for a closer look

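Of 92 groups of 4 arrays examined, 10 had 1 array far from the other 3, with a gap that took up most of the range of the group, past Dixon's critical value. Chance gives such a gap in about 1 in 20 groups. PDGF-BB 3 was that array for 7 of the 10. It detected 1070 probes (next PDGF-BB array 421), 53.2% of oxidative phosphorylation genes (next 7.59%) and 29.1% of translation factors (next 3.64%), and it had the highest PDGF-BB log2 intensity of Rps9 (7.08, next 5.17), Kansl2 (5.83, next 4.95), Acvr2b (5.57, next 4.98) and Fam126a (5.31, next 4.78). PDGF-BB 2 was lowest for Odc1 (6.22, next 7.81). Control 1 was lowest among the controls for the second Pik3r1 probe (4.76, next 6.91) and for the share of ribosomal protein genes detected (29.5%, next 65.6%). What sets these arrays apart was not tested.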

How the results depend on the processing

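Under all 24 alternatives, limma called 0 probes at an adjusted p under 0.05, with a lowest adjusted p of 0.0939 (without PDGF-BB 4). At an unadjusted p under 0.05 there were 2 higher and 21 lower probes of 595. On the same 595 probes the counts were 0 and 23 with no chip term, 1 and 18 with spline values and 0 and 21 with median scaling. They were 21 and 96 with array weights, 3 and 41 with the replicate block and 9 and 33 with all 12 arrays fitted. They were 18 and 112 on chip 1, 4 and 9 on chip 2 and 0 and 15 without normexp. Other filters changed the number of probes tested. The counts were 6 and 31 of 1115 with the filter at 2 arrays and 1 and 8 of 193 at 5 arrays. With no filter they were 610 and 538 of 25696, and with detection at 0.05 they were 24 and 43 of 2047. With array weights and the filter at 5 arrays they were 7 and 15 of 193. Whether equal replicate numbers mark paired samples is not stated, and these values do not settle it. Over the tested probes, same-numbered arrays of the 2 groups correlated at 0.48, 0.62, 0.84 and 0.76. Differently numbered ones correlated at 0.15 to 0.83. The median SE was 0.39 with the replicate block, against 0.44 with the chip. The replicate block left the difference in detected probes at −213.8 (exact sign-flip p = 0.125, the smallest possible). At each replicate number PDGF-BB detected fewer probes than control: 421 and 463, 322 and 820, 1070 and 1152, and 294 and 527. The group difference in detected probes was 201 on chip 2 and −394.8 to −76.58 with 1 array left out. Probes detected on every PDGF-BB array and on no control array numbered 0, or 9 at 3 of 4 against at most 1, and 0 to 2 with 1 array left out. Probes detected on every control array and on no PDGF-BB array numbered 1, or 134 at 3 of 4 against at most 1, and 1 to 12 with 1 array left out. These counts are not adjusted for the probes detected per array, a mean of 740.5 in control and 526.8 with PDGF-BB. Of 943 comparisons over 41 named probes, 923 kept their direction and 20 did not. Those were on chip 2 Ldb3 (−0.02), Klf10 (−0.81), Pdpk1 (0.13), Mapkapk2 (0.02) and Ptpn11 (−0.15), on chip 1 Mapk9 (−0.49), and with median scaling Nceh1 (0.08), Mapk14 (0.01) and Ptpn11 (−0.96). Without both PDGF-BB 1 and control 1 Ptpn11 had −0.05, and refiltered without PDGF-BB 1 Mapkapk2 had 0.11. With 1 array left out, Dap3 had −0.09 to 0.66, Mapk9 −0.16 to 0.34, Mapkapk2 −0.92 to 0.11 and Ptpn11 −0.30 to 0.39. The causes were not tested. Leaving out PDGF-BB 1 and refiltering, the array weights with the filter at 5 arrays, and leaving out both arrays were chosen after seeing the data.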
